A study of Monodelphis domestica and Mus musculus with 26 samples.

Results

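Opossum spermatogonia, the mitotic germ cells at the base of the testis tubules, were taken from single-cell RNA sequencing of dissociated adult testes of the gray short-tailed opossum (Monodelphis domestica). Barcodes with at least 1000 counts and 500 genes were kept. A kept cell was a member when its summed counts of PIWIL4, ELAVL4, SLC24A4, GRIA1 and GRM7 reached 2.5 and when PRM1, GPR161, MSMP, PKHD1L1 and YIPF5 together made up less than 0.5% of its counts. This gave 742 members among 21747 kept cells, with 158, 390 and 194 in libraries 1, 2 and 3. The series holds 26 testis samples: 3 mouse single-cell libraries, not used here, 3 opossum single-cell libraries, and 20 bulk opossum libraries of 1, 2, 3 and 4 months and adult. All opossum groups are whole testis, and the labels name no treatment, mutation or strain for them. The labels do not say whether libraries came from separate animals, so the p-values below measure only the spread between libraries, which may be technical.

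Spermatogonia sustain sperm production by renewing themselves and by giving rise to cells that enter meiosis. In mammals the undifferentiated cells carry the GDNF receptor GFRA1 and the transcription factors ZBTB16 and FOXO1, and the differentiating cells switch on the receptor KIT. Germ cells also use PIWI proteins and their small RNAs, the piRNAs, to silence transposons.

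The members were chosen by measured counts, so every comparison of members with other cells is a description without a test. Levels are given as CPM, the counts of a gene scaled to all counts summed over the cells of a set in a library. The share of members was 2.84% in library 1 (95% exact binomial interval 2.42 to 3.31), 4.799% in library 2 and 2.41% in library 3, or 3.35% ± 1.27 (SD, n = 3). It was 2.14% ± 0.91 (SD, n = 3) when GRM7 was left out of the marker sum, and 6.45% (mean of the 3 libraries) among cells with at least 2000 counts. Members were deeper than the other cells, with median counts of 13942, 7416 and 4476 against 1946, 2258 and 1609. Between 8 and 17 kept barcodes were shared by a pair of libraries, and none of them was a member in both libraries of its pair. Of the members, 11.4%, 8.5% and 12.4% were among the 8% of kept cells with the highest doublet scores. At the lower edge of the rule, 34, 68 and 40 members had marker sums between 2.5 and 3, and the highest sum among the cells left out for their marker sum was 2.498. Another 4, 28 and 4 cells reached the marker sum and were left out by the exclusion genes.

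The 5 rule markers were not equally shared among members. GRM7, a metabotropic glutamate receptor, lies at chr6:239335749-240227305, and 260 members (72, 131 and 57) met the rule only through it. The other 482 members (86, 259 and 137) reached the sum with PIWIL4, ELAVL4, SLC24A4 and GRIA1 alone. By contrast, 15 members were lost without PIWIL4, a PIWI protein of the piRNA pathway (chr4:264320787-264378862), 49 without the RNA-binding protein ELAVL4 (chr2:4961284-5120395), 100 without the ion exchanger SLC24A4 (chr1:219151716-219445864) and 30 without the glutamate receptor subunit GRIA1 (chr1:347632138-347978176). Coordinates are those of the bulk tables, whose build is not given in the sources used here. The split into 482 and 260 cells was made after these counts were seen, and it fixes low levels of those 4 markers in the 260. The 482 were also deeper, with median counts of 20761, 8736 and 4805 against 6267, 3607 and 2997 in the 260. The part of depth in the split was not tested. In the 260 of library 3, 1 count made 4.71 CPM, so low values there rest on few counts.

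Spermatogonial markers that the rule did not use were present in the 482 members and lower in the 260. GFRA1 was at 613, 668 and 811 CPM in the 482 members and at 108, 153 and 208 CPM in the 260. ZBTB16 was at 131, 208 and 259 CPM against 10.7, 14.6 and 35.9 CPM, and KIT at 110, 149 and 209 CPM against 0, 5.93 and 32.2 CPM. For these genes the lowest library of the 482 members lay above the highest of the 260. SPATA16, a gene of the forming acrosome, had the opposite order, with 149.9, 106 and 95.4 CPM in the 482 members and 1072, 1381 and 1496 CPM in the 260. Some spermatogonial markers in the 260 lay above their level in the pooled non-members. SCML2, a Polycomb protein of differentiating spermatogonia, was at 348, 286 and 383 CPM in them against 46.3, 53.2 and 71.0 CPM in the non-members, and FOXO1 at 23.3, 15.5 and 41.8 CPM against 9.51, 10.3 and 22.3 CPM. The summed list of differentiating markers was at 707, 525 and 749 CPM in the 260, against 348, 201 and 214 CPM in the non-members and 1519, 1726 and 1845 CPM in the 482. Non-members with meiotic genes, a set described below, had 244, 276 and 384 CPM of SCML2 and 483, 515 and 759 CPM of this list. These values overlap those of the 260, so SCML2 and the list do not set the 260 apart from those cells.

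Among 6371 genes with at least 30 CPM on either side in every library, 96 (1.51%) were at least 4-fold higher in the 482 members in every library and 324 (5.09%) at least 4-fold higher in the 260. The 10 leading named genes of the 260 were DNAH7, SPAG17, KIF9, SLC9C1, XKR4, C1orf94, DNAH10, RFX8, LIN7A and CFAP77. The dynein heavy chain DNAH7 was at 854, 732 and 944 CPM against 13.9, 9.68 and 9.56 CPM, and the central-apparatus protein SPAG17 at 1143, 1115 and 1363 CPM against 35.7, 8.26 and 8.29 CPM. The leading genes of the 482 included the adaptor LIMS1, at 112, 153 and 305 CPM against 4.91, 2.75 and 9.64 CPM, and the Notch ligand JAG2, at 248, 248 and 215 CPM against 10.2, 10.4 and 23.2 CPM. The 260 cells are therefore named below only by their need for GRM7, and values without them are given beside the share of members, the gene counts, the X-linked share and a part of the gene and list levels.

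**Figure D1:**
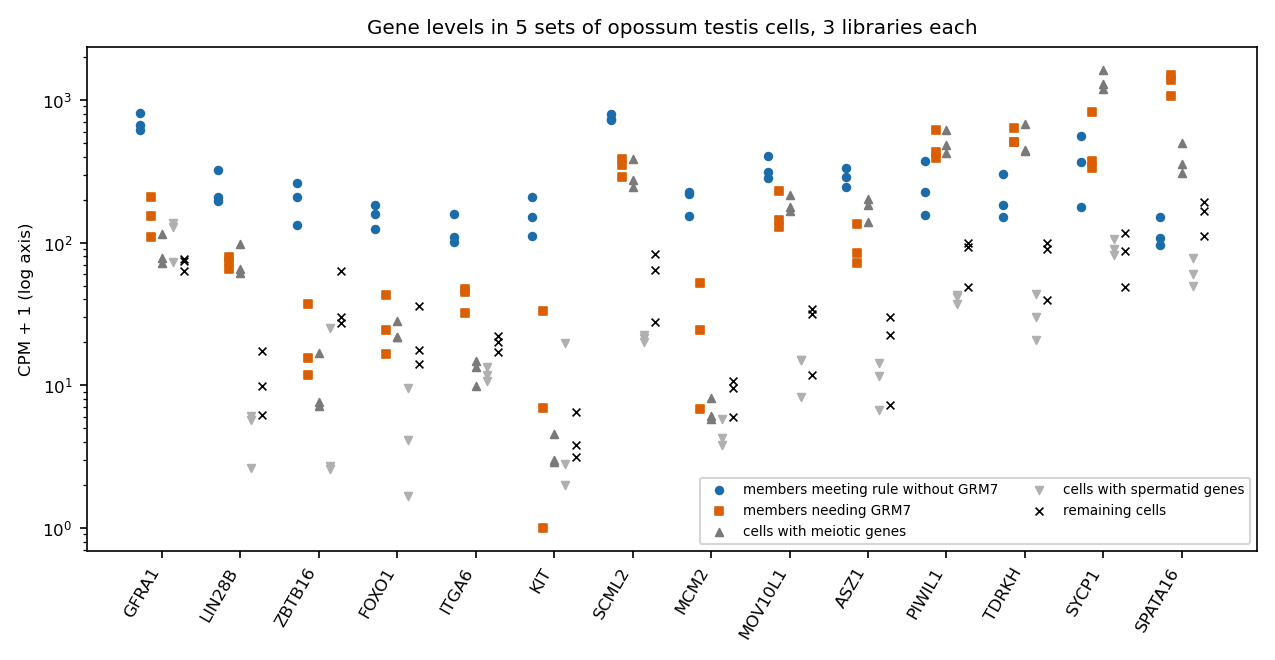
CPM plus 1 on a log axis for 14 genes in 5 sets of cells, with 1 point per library (3 per set). GFRA1, ZBTB16, FOXO1 and KIT are highest in the members that meet the rule without GRM7, and SPATA16 is highest in the members that need GRM7.

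For comparison the other cells were divided by their own genes into 9623 cells past the exclusion limit (spermatid genes), 681 cells with at least 3 counts of 6 meiotic genes, and 10701 remaining cells. The meiotic set holds non-members only: 56.3%, 34.9% and 29.4% of the members, and 68.6%, 40.5% and 33.6% of the 482, also had at least 3 counts of the 6 meiotic genes, at a higher depth per cell. Over all members, 185 of 7132 genes (2.59%) were at least 4-fold higher than in the other cells in every library with at least 30 CPM in members, and 692 (9.70%) were at least 4-fold lower with at least 30 CPM in the other cells. Ratios carry a pseudocount of 10 CPM. The median log2 ratio of all tested genes was 0.52, 0.61 and 0.54 in libraries 1, 2 and 3, so the median gene was higher in members before any call. With ratios centred on that median, 71 genes were higher and 1008 lower. Without the GRM7-dependent members 274 genes were higher, 180 of them shared with the 185, and 853 lower. The count of higher genes was 354 without library 1.

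First of the 25 leading named genes, M1AP, a protein needed in male meiosis, was at 167, 220.0 and 168 CPM in members and at 2.55, 3.77 and 3.72 CPM in the other cells, a log2 ratio of 3.86 ± 0.19 (SD, n = 3). REC114, which acts in meiotic DNA break formation, was at 509, 553 and 485 CPM against 36.3, 42.2 and 40.5 CPM. The meiotic cells had 177, 208 and 212 CPM of REC114 and 12.1, 8.04 and 4.31 CPM of M1AP, so over all members both genes were higher than in the non-members with meiotic genes. In the 482 members M1AP reached 219, 278 and 208 CPM, and in the GRM7-dependent members 21.9, 27.2 and 35.0 CPM. REC114 was at 625.5, 676 and 567 CPM in the 482. In the GRM7-dependent members it was at 181, 144.5 and 215 CPM, which overlaps the meiotic cells.

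The replication genes MCM2, MCM3 and POLA1 and the DNA repair gene BARD1 were among the 25. BARD1 was at 325, 444 and 401 CPM against 27.9, 16.6 and 16.7 CPM, and at 427, 563 and 483 CPM in the 482 members against 37.6, 51.4 and 129.8 CPM in the 260. MCM2, a subunit of the replicative helicase, was at 114, 173 and 185 CPM against 7.02, 3.91 and 6.74 CPM. DCTPP1, which clears modified nucleotides, was at 247, 324 and 357 CPM against 18.3, 10.9 and 13.6 CPM. In the 482 members DCTPP1 was at 327, 409 and 433 CPM and MCM2 at 153, 219 and 225 CPM, and in the 260 they were at 18.3, 44.8 and 110.1 CPM and at 5.87, 23.5 and 50.8 CPM. The other genes of the 25 with known roles included the teneurin TENM4, the phosphatase PTPRZ1, the splicing regulator RBFOX1, the RNA-binding proteins LIN28B and ELAVL2, the Polycomb protein SCML2, the transcription factor BCL11A and the piRNA factors ASZ1 and MOV10L1. RFTN1, ZNF385B, SIPA1L2, KLHL32, SLC12A7, MPPED2, SCG5 and FOCAD completed the named set with KIT. The 2 leading genes without a name were ENSMODG00000017482 (chrX:63973256-63975466), at 417, 519 and 567 CPM against 3.05, 2.26 and 5.58 CPM, and ENSMODG00000041495 (chr2:325287829-325301056), at 295, 506 and 644 CPM against 4.404, 5.28 and 16.2 CPM. In the 482 members ENSMODG00000017482 was at 559, 666 and 718 CPM against 14.9, 33.8 and 70.1 CPM in the 260, and ENSMODG00000041495 at 398, 651 and 779.9 CPM against 2.46, 29.6 and 199.6 CPM.

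Of the 185 higher genes, 128 were also at least 2-fold and 78 at least 4-fold higher than in the meiotic cells in every library. The other cells against which the 185 were chosen include the meiotic cells. The share of all tested genes in this comparison is not given here, so the 2 counts are a description only.

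The 8 leading named lower genes were HIST1H4I, TMEM247, ABHD16B, CEP19, IMPA1, KRT18, TMEM239 and MCFD2. HIST1H4I, a histone H4 gene, was at 0.647, 7.39 and 1.09 CPM in members and at 852, 1475 and 1296 CPM in the other cells. KRT18, a keratin, was at 1.25, 8.53 and 0.724 CPM against 436, 1106 and 615 CPM. In the cells with spermatid genes, which the rule excludes from members, KRT18 was at 1094, 2135 and 1207 CPM.

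Of the undifferentiated spermatogonia list, 22 of 29 genes were in the files and 9 passed the filter, of which 4 were at least 4-fold higher (GFRA1, LIN28B, ZBTB16, FOXO1), where 2.59% of all genes were, and none lower. Genes could pass the filter through members alone, as LIN28B and FOXO1 did at under 30 CPM in the other cells. ZBTB16 did so too, at under 30 CPM in the other cells of library 1. The genes tested therefore do not stand for the whole list. The share of all genes is given beside them, but counts of higher genes are not read against it. Both limits hold in the lists that follow. FOXO1 was at 96.7, 124 and 149 CPM in members against 9.51, 10.3 and 22.3 CPM, and at 123, 157 and 181 CPM in the 482 members against 23.3, 15.5 and 41.8 CPM in the 260. The laminin receptor subunit ITGA6 passed at 2-fold, where 23.0% of all genes were higher, with 84.9, 90.7 and 132 CPM against 15.6, 12.6 and 16.6 CPM. UCHL1, a ubiquitin hydrolase, was at 1323, 1620 and 3053 CPM in members but also at 1296, 421 and 219 CPM in the other cells, so library 1 showed almost no difference. UCHL1 made up most of the list's summed level in members, which was 2627, 3022 and 4871 CPM. EGR4 had no count in members of any library. With ratios centred on the library median, GFRA1 and ZBTB16 no longer reached 4-fold, at log2 ratios of 1.94 and 1.77.

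Of the differentiating list, 8 of 15 genes were in the files and 3 passed, with SCML2 and KIT higher beside the same share. KIT was at 1.7, 2.3 and 11.6 CPM in the other cells and entered through members alone, so this count is not read against that share. SCML2 was at 621, 674 and 652 CPM against 46.3, 53.2 and 71.0 CPM, and in the meiotic cells at 244, 276 and 384 CPM. DMRT1, which holds germ cells in the mitotic state, was at 533, 615 and 742 CPM against 278, 130.3 and 106 CPM, and did not pass. STRA8, induced by retinoic acid, did not pass the filter, at 54.6, 36.0 and 18.0 CPM in members and 6.18, 7.37 and 5.94 CPM in the other cells. Of 13 niche receptor genes tested GFRA1 and KIT, already counted in the spermatogonia lists, passed 4-fold, where 2.59% of all genes did. Of 31 neuronal genes in the files 5 were tested, of which RBFOX1 and ELAVL2 passed. KIT, RBFOX1 and ELAVL2 entered the test through members alone, at under 30 CPM in the other cells. Neither count is therefore read against the share of all genes. SYN1, a synaptic vesicle protein, was at 0 in members.

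Of the 19 piRNA genes in the files, 17 were tested, with 4 higher at 4-fold (TDRD9, MORC1, MOV10L1, ASZ1) and 13 at 2-fold, where 2.59% and 23.0% of all genes were. At least MOV10L1 and ASZ1 entered the test through members alone, at 26.2 and 19.3 CPM in the other cells of library 1. These counts are therefore not read against those shares. TDRD9, a helicase of the pathway, was at 643, 619.9 and 759 CPM against 127, 128 and 139 CPM. MOV10L1 was at 247, 271 and 364 CPM in members and at 177, 214 and 164 CPM in the meiotic cells. ASZ1 was at 215, 237 and 273 CPM in members and at 139, 181 and 203 CPM in the meiotic cells. Their mean log2 ratios of members over meiotic cells were only 0.63 and 0.46. The piRNA genes were not all highest in members. PIWIL1 was at 376, 219 and 317 CPM in members, with means of 251 CPM in the 482 and 477 CPM in the GRM7-dependent members and 507 CPM in the meiotic cells. TDRKH, a Tudor-domain protein, had means of 211, 547 and 519.8 CPM in the same 3 sets. The list's summed level was 5121, 3939 and 5084 CPM in members, against 5458, 5697 and 6957 CPM in the meiotic cells, and 5292, 3838 and 5102 CPM in the 482 members.

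Of 13 cell-cycle genes tested, 6 passed 4-fold (MCM2, MCM6, MCM3, KIF11, MCM7, MCM5) and 12 passed 2-fold, where 2.59% and 23.0% of all genes did. At least MCM2, MCM3 and MCM5 entered the test through members alone, at under 30 CPM in the other cells. These counts are therefore not read against those shares. TOP2A, a topoisomerase of dividing cells, was at 715, 959 and 806 CPM against 177, 184 and 204 CPM. MCM5 was at 66.7, 82.1 and 92.4 CPM in the 482 members and at 3.64, 12.5 and 24.6 CPM in the GRM7-dependent ones. Of 9 meiotic chromosome genes tested, SHOC1 passed 4-fold, and MEI4, MSH4 and MEI1 joined it at 2-fold, beside the same shares. SYCP1, a synaptonemal complex protein, was at 627, 213 and 368 CPM in members and had a mean of 1368 CPM in the meiotic cells.

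Of 10 germ cell identity genes tested RBM46 and ELAVL2 passed 4-fold, and of 8 DNA methylation and chromatin genes SCML2 did, where 2.59% of all genes did. ELAVL2 entered through members alone, as in the neuronal list, so the germ cell identity count is not read against that share. Of 6 genes of retinoic acid signalling and meiotic entry none was 4-fold different. The retinaldehyde dehydrogenase ALDH1A1, which makes retinoic acid, was 2-fold lower, at 511, 151 and 117 CPM against 1440, 838 and 849 CPM, where 17.8% of all genes were 2-fold lower.

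Of 10 spermatid genes tested 9 were at least 4-fold lower, where 9.70% of all genes were. The rule keeps cells with spermatid genes out of members and leaves them among the other cells. This count therefore follows from the choice of cells and is not read against that share. SPATA16 was the exception, at 391, 402 and 423 CPM against 127, 133 and 137 CPM. In the 482 members SPATA16 was at 149.9, 106 and 95.4 CPM, about the level of the other cells. It made up most of the spermatid sum of the 260, with 1072 of 1228, 1381 of 1802 and 1496 of 1699 CPM. The summed Sertoli list was at 112, 107 and 82.8 CPM in members and 758, 470.2 and 549 CPM in the other cells. The summed peritubular and stromal list was at 164, 124 and 128 CPM against 1627, 859 and 1706 CPM, and the immune list at 53.4, 26.8 and 9.48 CPM against 543, 315 and 479 CPM. In the 482 members the Sertoli sum was 58.9, 79.1 and 82.4 CPM, the stromal sum 74.9, 114 and 147 CPM and the immune sum 13.5, 18.7 and 12.4 CPM. The endothelial and Leydig sums lay closer to those of the other cells. The endothelial sum was 71.8, 34.6 and 57.5 CPM in members against 98.0, 47.3 and 137 CPM, and the Leydig sum 170.1, 268 and 237 CPM against 338, 662 and 866 CPM. No endothelial gene of 11 in the files passed the filter, and of 4 Leydig genes tested 1 was 2-fold lower. STAR, a steroid-synthesis gene, remained at 116, 183 and 182 CPM in members, against 170.4, 377 and 496 CPM. The part of RNA from these cells in the members' values was not tested.

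**Figure D2:**
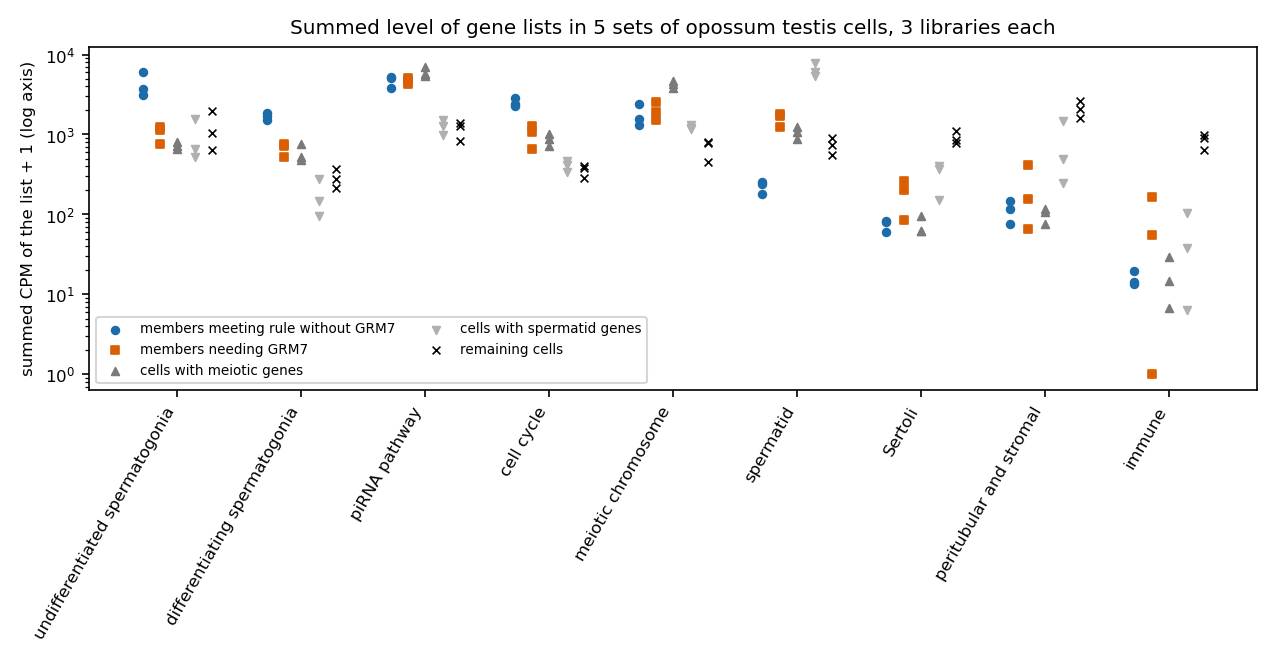
Summed CPM plus 1 of 9 gene lists on a log axis in 5 sets of cells, with 1 point per library (3 per set). The undifferentiated and differentiating lists are highest in the members that meet the rule without GRM7, and the spermatid list is lower there than in the members that need GRM7, where SPATA16 makes up most of it. Over all members UCHL1 makes up most of the undifferentiated list.

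X-linked genes, located through the bulk tables, contributed 1.75%, 2.35% and 2.25% of the counts of members in libraries 1, 2 and 3 and 3.76%, 2.90% and 1.92% of those of the other cells. Members were therefore lower in libraries 1 and 2 and higher in library 3. The share was 1.95%, 2.82% and 2.67% in the 482 members, 1.18%, 0.801% and 0.872% in the GRM7-dependent members, and 0.378%, 0.413% and 0.270% in the meiotic cells, with no overlap between these 3 sets. Of the 185 higher genes 28 were X-linked, against 153 of the 7132 tested.

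**Figure D3:**
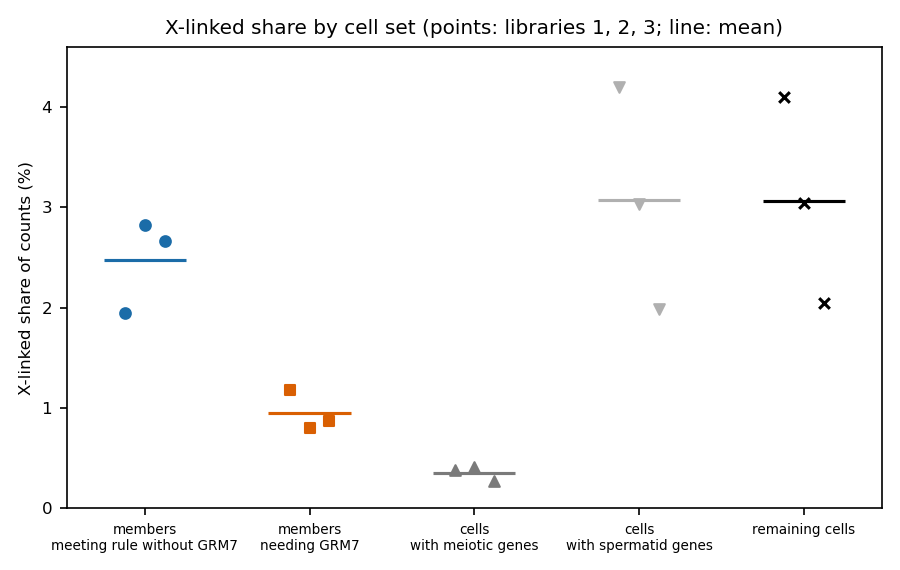
X-linked share of counts in percent in 5 sets of cells, with 1 point per library and a line at the mean of 3. The members that need GRM7 lie between 0.801% and 1.18%, below the other members and above the meiotic cells.

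Bulk libraries, which were not used to choose the members, were used to test how the same genes differ with age in the whole testis. The test was limma on log2(TPM + 1) in 15 polyA libraries: 2 of 1 month, 4 of 3 months, 3 of 4 months and 6 adult. Adult replicates 1 and 3 stood apart, with 13166 and 14576 genes at 1 TPM or more against 16263 to 16544 in the other 4, so values are also given without both, a choice made after seeing the data. At 4 months replicate 3 had 13871 such genes, against 16567 and 15394 in replicates 1 and 2. Its deviations from the mean of its age correlated at 0.67 with those of adult replicate 3. This 4 month library was kept in every run, and its effect was not tested. In bulk tissue, fewer cells of a type and less RNA per cell cannot be told apart. Of 18813 genes, 5463 (29.0%) were higher and 2912 (15.5%) lower in adult than at 1 month, at a Benjamini-Hochberg adjusted p under 0.05 and a log2 difference of at least 1. The 176 tested genes of the 185 had 43 lower (24.4%) and 29 higher (16.5%), with a median log2 difference of 0.27 against 0.65 over all genes. Without adult replicates 1 and 3 the counts were 42 lower and 66 higher, where 15.4% of all genes were lower and 43.8% higher. Without adult replicate 1 alone 47 were higher, where 37.4% of all genes were. Without 1 month replicate 1 the counts were 36 lower and 10 higher, where 9.88% and 17.2% of all genes were. Without 1 month replicate 2 they were 31 and 12, where 9.62% and 16.9% were. At 3 months against 1 month 41 of the 176 were lower and 39 higher, where 15.5% and 37.6% of all genes were. Without 1 month replicate 1 these counts were 35 and 15, where 10.6% and 24.2% of all genes were lower and higher, and without replicate 2 they were 29 and 19, where 10.4% and 23.9% were. Between adult and 3 months no gene of the 176 passed, where 1.24% of all genes were higher and 1.13% lower; 17 of the 176 had an unadjusted limma p under 0.05, as did 3920 of all 18813 genes. Without adult replicates 1 and 3, 2 of the 176 were higher and 1 lower in that comparison, where 4.93% of all genes were higher and 4.19% lower.

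Among the 25 leading genes, 5 were lower and 3 higher in adult than at 1 month, where 15.5% and 29.0% of all genes were. Without adult replicates 1 and 3, where 43.8% of all genes were higher, PTPRZ1, SIPA1L2, KIT and FOCAD were also higher (limma adjusted p = 0.00487, 0.00828, 0.000628 and 0.00342). DCTPP1 had 284 and 324 TPM at 1 month, between 6.85 and 10.3 TPM at 3 months, and between 9.14 and 29.4 TPM in adult. The 1 month and adult libraries did not overlap, and the log2 difference was -4.32 ± 0.52 (SE, limma adjusted p = 1.12e-05). BARD1 had 34.6 and 42.8 TPM at 1 month and 3.21 to 9.78 TPM in adult, a log2 difference of -2.49 (limma adjusted p = 0.000265). LIN28B, a repressor of the let-7 microRNAs, had 7.29 and 7.49 TPM at 1 month and 1.96 to 2.80 TPM in adult, a log2 difference of -1.32 (limma adjusted p = 0.0033).

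SCG5 and MCM2 were lower by the same test (limma adjusted p = 0.00448 and 0.00473), and both calls were lost without 1 month replicate 2 (adjusted p = 0.0845 and 0.0556). M1AP, RFTN1 and ELAVL2 were higher in adult, with log2 differences of 1.71, 2.17 and 1.24 (limma adjusted p = 0.0035, 0.0186 and 0.0197). The M1AP call was lost without 1 month replicate 1 (limma adjusted p = 0.0733), and those of RFTN1 and ELAVL2 without either 1 month library (limma adjusted p = 0.127 and 0.15 without replicate 1, 0.088 and 0.0881 without replicate 2). With FPKM in place of TPM the ELAVL2 difference was 0.95, under the limit of 1. POLA1 and ZNF385B, not called here, were lower with FPKM (log2 differences -1.20 and -1.05, limma adjusted p = 0.00496 and 0.0277). POLA1 was also lower without adult replicate 4 or 7 (limma adjusted p = 0.04 and 0.0409) and with all libraries and library type as a covariate (limma adjusted p = 0.0459).

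Of the rule markers, SLC24A4 alone passed, and PIWIL4 did not, with 13.3 and 16.8 TPM at 1 month and 6.90 to 18.1 TPM in adult (log2 difference -0.32, limma adjusted p = 0.462). The SLC24A4 call was lost without either 1 month library (limma adjusted p = 0.214 and 0.0621) and with FPKM (log2 difference 0.81). KIT had 3.84 and 5.66 TPM at 1 month and 3.795 to 17.5 TPM in adult and did not pass (log2 difference 1.00, limma adjusted p = 0.0883). It passed without adult replicate 1 or 3 alone (limma adjusted p = 0.0479 and 0.0141). GFRA1 had 27.2 and 34.2 TPM at 1 month, 38.7 to 53.6 TPM at 3 months and 14.01 to 106 TPM in adult, and did not pass (log2 difference 0.95, limma adjusted p = 0.187). GFRA1 passed without adult replicate 1 (log2 difference 1.36, limma adjusted p = 0.00506) and without replicates 1 and 3 (1.64, limma adjusted p = 1.44e-05).

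Of 18 undifferentiated genes tested in bulk, ID4, ETV5, TAF4B, CDH1 and UCHL1 were higher in adult and LIN28B lower, shares of 27.8% and 5.56% beside 29.0% and 15.5% over all genes. CDH1, an adhesion protein, had 0.186 and 0.261 TPM at 1 month and 1.53 to 15.8 TPM in adult (log2 difference 2.79, limma adjusted p = 0.00103). ETV5 separated the adult libraries: replicates 1 and 3 had 0.474 and 0.533 TPM, and the other 4 had 18.4 to 22.7 TPM. Without adult replicates 1 and 3, where 43.8% of all genes were higher, GFRA1, ZBTB16, FOXO1, ITGA6, FGFR3, THY1 and PLPPR3 also passed as higher (limma adjusted p = 1.44e-05, 0.0136, 0.0161, 0.00142, 0.0127, 0.0401 and 0.0182). The calls of ID4, ETV5 and UCHL1 were lost without either 1 month library (limma adjusted p = 0.171, 0.149 and 0.109 without replicate 1), and that of TAF4B without replicate 2 (limma adjusted p = 0.0541). ID4 and ETV5 were also lost without any one of adult replicates 4, 5, 6 and 7 (limma adjusted p at most 0.0773), and ID4 with any one of the 3 month libraries left out (limma adjusted p at most 0.0571). With no filter on low values neither passed (limma adjusted p = 0.0781 and 0.0674), and ID4 did not with a pseudocount of 0.1 TPM (limma adjusted p = 0.0606).

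Of 8 differentiating genes, UPP1, CRABP1 and DNMT3B were lower in adult and DMRT1 higher, where 15.5% of all genes were lower and 29.0% higher. CRABP1, a retinoic acid binding protein, had 7.13 and 15.4 TPM at 1 month and at most 0.0929 TPM in adult (log2 difference -3.51, limma adjusted p = 1.44e-08); members of the adult single-cell libraries had 0, 0.644 and 1.10 CPM. The DMRT1 call was lost without either 1 month library (limma adjusted p = 0.0976 and 0.098).

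Of 19 piRNA genes, 12 were higher in adult than at 1 month and none lower, where 29.0% of all genes were higher and 15.5% lower. The calls of TDRD12 and MORC1 were lost without either 1 month library (limma adjusted p = 0.0796 and 0.1 without replicate 1, 0.178 and 0.0586 without replicate 2), and that of TDRKH without replicate 1 (limma adjusted p = 0.0918). PIWIL1 had 6.66 and 11.1 TPM at 1 month, 90.9 to 139 TPM at 3 months and 22.8 to 145 TPM in adult (log2 difference 2.96, limma adjusted p = 0.00154). PLD6, an endonuclease of piRNA biogenesis, had 1.83 and 2.19 TPM at 1 month and 17.7 to 91.2 TPM in adult (log2 difference 4.01, limma adjusted p = 6.02e-06). MOV10L1 and ASZ1, both among the 25 leading genes of members, did not pass (limma adjusted p = 0.177 and 0.865). Of 16 cell-cycle genes 8 were lower and 1 higher, and 14 of 14 spermatid genes were higher, beside the same shares over all genes.

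**Figure D4:**
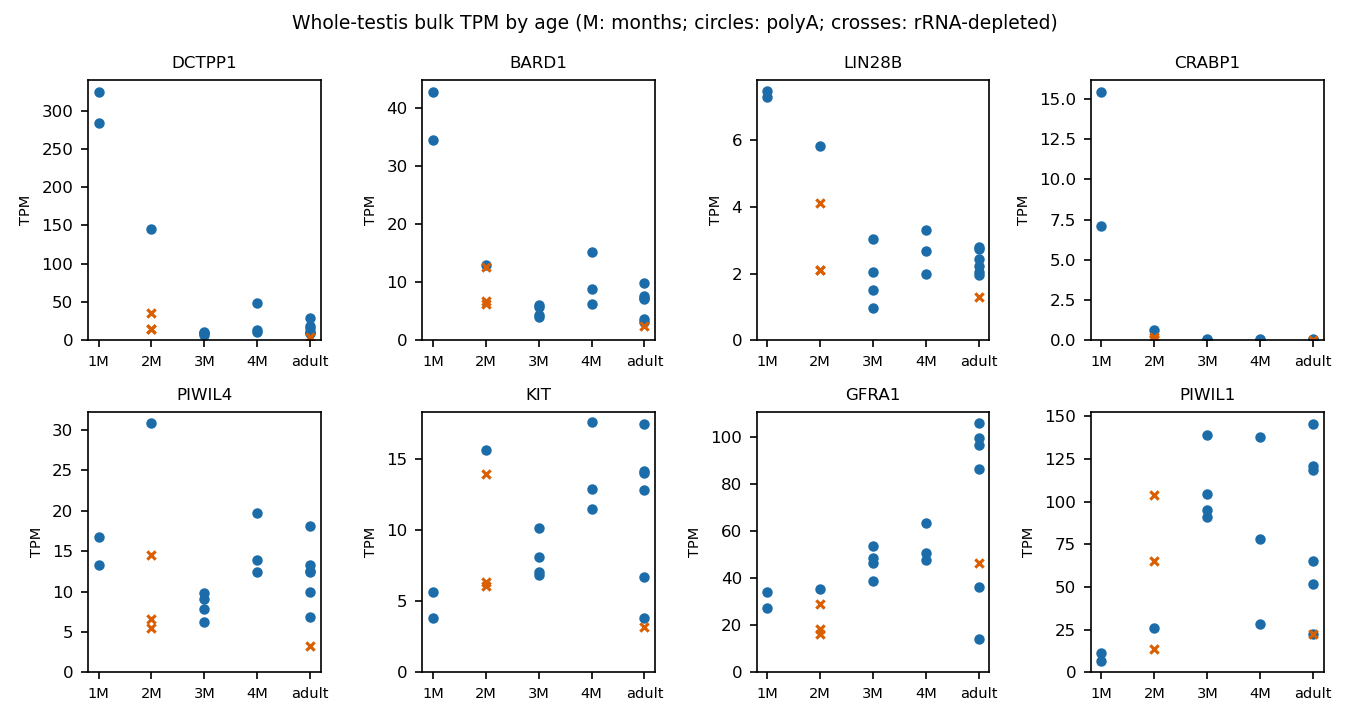
TPM of 8 genes in 20 whole-testis bulk libraries by age, with circles for polyA and crosses for rRNA-depleted libraries. DCTPP1, BARD1, LIN28B and CRABP1 are highest at 1 month, and the adult libraries of KIT and GFRA1 range from below those of 1 month to above them.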

How the data were processed

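Members and gene lists were chosen with earlier results of these data known. The authors deposited single-cell matrices of estimated counts, mostly not whole numbers; Cell Ranger 6.0.1 is named in the submitters' processing notes, and 3.15% to 6.49% of entries are 0. Total counts were 25771011, 37747724 and 22710048. The bulk tables the authors deposited hold TPM, FPKM and coverage (signal) per gene; HISAT2 2.2.1, SAMtools 1.12 and StringTie 2.1.4 are in the same notes. The build ASM229v1 is in the labels of 1 single-cell library. Read numbers of the bulk libraries are unknown.

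Counts were summed per library and cell set and scaled to CPM; ratios had a pseudocount of 10 CPM. Doublets were not removed. Genes named are the 25 higher and 8 lower named genes with the largest ratio in their weakest library, the rule markers, up to 4 genes per list by CPM, and listed markers at 0; other listed genes are named where they passed a call, chosen after their values were seen. Lists are described by counts and summed CPM. Bulk genes with TPM of at least 1 in 2 polyA libraries entered limma 3.58.1 (trend) on log2(TPM + 1); rRNA-depleted libraries and the polyA library of 2 months were left out. The code was tested on simulated data. The bulk simulation gave each gene its median within-age spread, the same at every age, and independent noise. Deviations that many genes of a library share were not simulated, so its recovery need not hold for the real adult libraries. With 200 genes changed 4-fold between adult and 1 month among 18813, 143 were called, with 6 false calls. Of the 50 changed genes with the smallest spread 50 were called, and of the 50 with the largest spread 8. A requirement of a higher recovery was dropped after this result, because the mean estimated log2 change was 2.02 and misses lay in genes of large spread. Intervals cover counting error only.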

Additional observations from a re-analysis of the deposited data

Results flagged for a closer look

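Among 142 sets of TPM values (the genes named in bulk, at 3 months and in adult), 4 had a library standing far from the rest by Dixon's test, which chance gives in about 5% of sets. At 3 months replicate 4 was the highest for EPCAM, an adhesion protein, at 102.5 TPM against at most 58.2 TPM, and the lowest for RBFOX1 at 0.445 TPM against 0.528 TPM or more. CRABP1 was listed at 0.0736 TPM in the same library and at 0 in the other 3. In adult replicate 1 CRABP1 was at 0.0929 TPM, against at most 0.00979 TPM in the others. The CRABP1 values are close to 0.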

How the results depend on the processing

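The share of members was 6.45% with at least 2000 counts per cell. The 185 higher genes were 404 with a pseudocount of 1 CPM and 23 with 50 CPM, 1641 at 2-fold, and 71 with centred ratios; they ranged from 199 to 354 when a library was left out. The 692 lower genes were 179 with 50 CPM, 1267 at 2-fold, 347 with counts rounded up and 404 with the mean of per-cell CPM. The split moved from 21.1% higher among called genes to 56.4% at 2-fold, 11.4% with 50 CPM and 6.6% with centred ratios. The X-linked share was 2.48% in members chosen without GRM7. Leaving out GRM7, centring and per-cell means were chosen after seeing the data. In bulk, the 447 calls between adult and 3 months were 277 with 0.1 TPM as pseudocount and 277 without a filter, and 85 to 1044 when a library was left out. The calls of adult against 1 month ranged from 4908 to 9914, those of 3 months against 1 month from 6346 to 10525, and the fallen genes among the 176 from 31 to 45. Without adult replicates 1 and 3, chosen after seeing the data, adult against 3 months gave 1697 calls. The split of its calls moved from 52.3% higher to between 29.0% and 83.5% with a library left out. The 4 month libraries were kept in every run. Replicate numbers did not pair the samples: 1 of 13 same-numbered pairs had a correlation of deviations above 0.1, and 2 of 12 libraries correlated best with their own number. With the replicate block, calls were 4306 for adult against 1 month, 9 for adult against 3 months, and 27 fallen and 5 risen genes among the 176; of the 69 genes followed singly, 18 no longer passed, LIN28B and CDH1 among them. No named gene past its threshold changed sign in any alternative run. The 2 libraries of 1 month and the unknown read depth limit the bulk test, and fractional counts limit values near 0.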
